A study of Pinus pinaster with 4 samples.

Results

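Aquaporins are channel proteins that let water, and in some members other small uncharged molecules, pass through membranes. Tonoplast intrinsic proteins (TIPs) sit in the tonoplast, the membrane of the vacuole, and pass water between the cytosol and the vacuole, while plasma membrane intrinsic proteins (PIPs) pass it across the outer membrane of the cell. In leaves both groups are known for their part in the water balance and the turgor of cells. The needles of maritime pine (Pinus pinaster) gave data for 2 contigs that the array annotation at hand names as members of this family. The table has 17571 contigs, and that annotation had an entry for only 1036 of them. Other members of the family among the rest would not have been seen. Contig sp_v3.0_unigene7121 is described as a putative tonoplast intrinsic protein, after a castor bean (Ricinus communis) sequence, and its Arabidopsis match is AT2G25810, a TIP gene. Contig sp_v3.0_unigene126785 is described as a probable aquaporin, after a spruce (Picea) sequence, and its Arabidopsis match is AT4G35100, a PIP gene. The names come from the annotation of the microarray used in the study and rest on similarity to other species.

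Both contigs were chosen by array values, from the rows with the lowest p for a difference between the provenances. Those arrays included the RNA samples that were sequenced. The difference between the provenances was thus part of how they were chosen, and their levels are given as a description that supports nothing by itself. RNA-Seq was performed on 2 needle samples of Leiria, a provenance from central Portugal (libraries L6 and L7). The other 2 samples were of Tamrabta, a provenance from the Atlas mountains of Morocco (libraries T3 and T6). All plants were rooted cuttings of 17 months, potted and fed in the same greenhouse in northern Spain and pruned before sampling. Provenance is the only difference between the groups that the labels give. It is not stated whether a sample was 1 plant or a pool of plants, or whether plants of the same provenance came from 1 clone. For brevity each library is called a plant below. With 2 libraries per provenance the spread describes these samples only. Expression is given as counts per 1000000 counts (CPM), scaled by the authors with the TMM method of edgeR, which corrects for library composition. Whole counts could be recovered from every value, and they summed to between 40019608 (L6) and 58835449 (L7) per library. Of 4 contigs of photosynthesis set as markers of needle tissue, 3 had a row, with at least 4003 counts in every library.

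The TIP contig was more abundant in Leiria needles than in Tamrabta needles, by 2.47-fold in the means. It had 42.7 (L6) and 36.1 (L7) CPM in Leiria plants and 17.6 (T3) and 14.3 (T6) CPM in Tamrabta plants. Both Leiria plants lay above both Tamrabta plants, as they did for 25.1% of all contigs. The means were 39.4 ± 4.70 CPM in Leiria and 15.9 ± 2.33 CPM in Tamrabta (SD, n = 2 each). These values came from 1555 and 2112 counts in L6 and L7 and from 888 and 643 counts in T3 and T6. The exact Poisson 95% interval of the lowest of them, T6, was 13.2 to 15.4 CPM, a range that covers counting error only. The logFC (the mean log2(CPM + 0.5) of Leiria minus that of Tamrabta) was 1.28 with a standard error of 0.19 from limma.

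Expression of the aquaporin contig was also higher in Leiria, by 2.42-fold in the means, but its plants were more spread. It had 187 (L6) and 238 (L7) CPM in Leiria plants and 68.2 (T3) and 108 (T6) CPM in Tamrabta plants. Again both Leiria plants lay above both Tamrabta plants. The means were 212 ± 36.3 CPM in Leiria and 87.9 ± 27.9 CPM in Tamrabta (SD, n = 2 each). The SD was 17.1% of the mean in Leiria and 31.7% in Tamrabta, where it was 11.9% and 14.6% for the TIP contig. Counts were 6795 and 13931 in the Leiria libraries and 3440 and 4840 in the Tamrabta libraries. Its logFC was 1.30 with a standard error of 0.29 from limma. In whole needles, fewer cells of a type and less RNA per cell cannot be told apart for either contig.

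**Figure D1:**
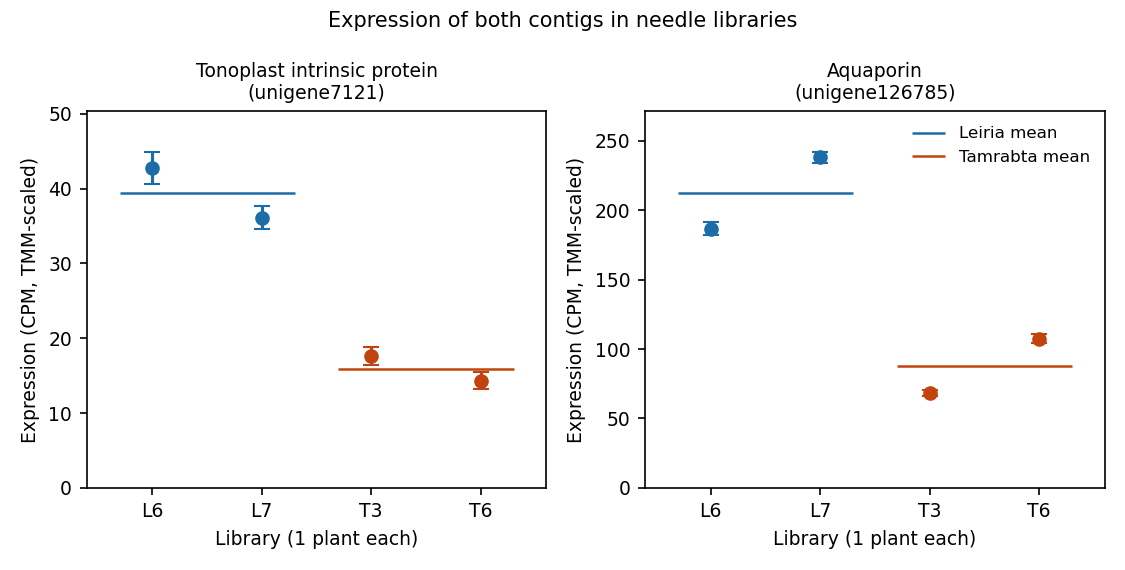
Expression of the TIP contig (left) and the aquaporin contig (right) in CPM for each library, with Leiria (L6, L7) in blue and Tamrabta (T3, T6) in orange. Bars are exact Poisson 95% intervals of the counts, lines are provenance means, and the lowest Leiria library lies above the highest Tamrabta library in both panels. The axis takes each library as a single plant, which the sources do not state.

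Library by library, the distance between the provenances varied in opposite ways for the 2 contigs. For the TIP contig the 4 Leiria over Tamrabta folds lay between 2.05 (L7 over T3) and 2.99 (L6 over T6). For the aquaporin contig they lay between 1.74 (L6 over T6) and 3.49 (L7 over T3). The same library pairs were thus at opposite ends, since L6 over T6 was the widest pair of the TIP contig and the narrowest of the aquaporin contig. This follows from the order of the plants within each provenance, given next, and is not a separate result.

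Within each provenance the contigs moved in opposite directions. TIP expression was 1.18-fold higher in L6 than in L7 and 1.23-fold higher in T3 than in T6. Aquaporin expression was 1.27-fold higher in L7 than in L6 and 1.58-fold higher in T6 than in T3. The Poisson intervals of the plants of a provenance did not overlap for either contig, so these gaps were larger than counting error. For the TIP contig the gap between plants, on the log2(CPM + 0.5) scale, was 0.24 in Leiria and 0.29 in Tamrabta, near the medians over all contigs of 0.21 and 0.31. For the aquaporin contig it was 0.35 in Leiria and 0.65 in Tamrabta, wider than the gap of 70.3% and 79.1% of all contigs. A gap in the direction of the TIP contig in both provenances (L6 above L7 and T3 above T6) was found in 29.1% of all contigs, and one in the direction of the aquaporin contig in 30.7%.

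The ratio of the contigs within a library does not depend on how the libraries were scaled. For 100 counts of the aquaporin contig the TIP contig had 22.9 counts in L6 and 15.2 in L7 of Leiria, and 25.8 counts in T3 and 13.3 in T6 of Tamrabta. The highest and the lowest ratio were both in Tamrabta plants, with the Leiria plants between them, so the provenances overlapped fully. The 95% counting intervals, from the normal approximation on the log ratio, were 21.7 to 24.2 in L6, 14.5 to 15.9 in L7, 24.0 to 27.8 in T3 and 12.2 to 14.4 in T6. Contig lengths were not used here, so only the variation of this ratio is read and not its size. The mean of its log2 was -2.42 in Leiria and -2.43 in Tamrabta, a difference of 0.0084 beside gaps between plants of 0.59 in Leiria and 0.96 in Tamrabta. On the log2(CPM + 0.5) scale the logFC of the TIP contig minus that of the aquaporin contig was -0.013. It ran from -0.49 without T6 to 0.46 without T3, a range far wider than the value itself.

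**Figure D2:**
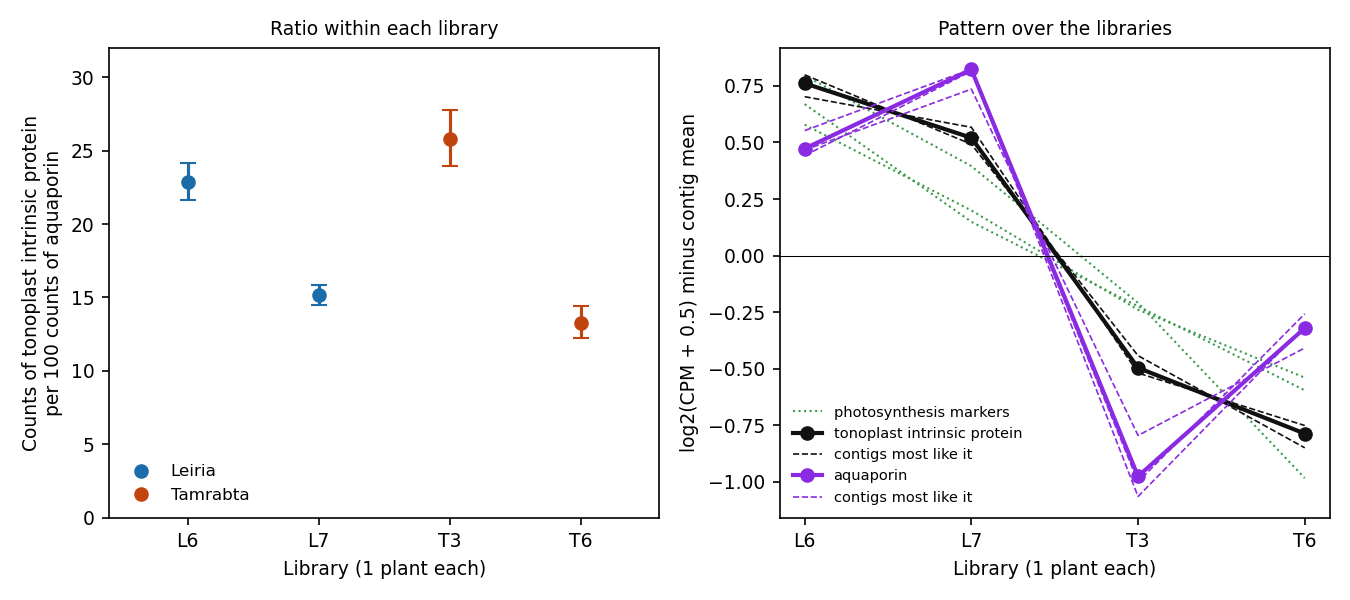
Left, counts of the TIP contig per 100 counts of the aquaporin contig in each library, with 95% counting intervals; the Leiria libraries (22.9 and 15.2) lie between the Tamrabta libraries (25.8 and 13.3). Right, log2(CPM + 0.5) of each contig minus its mean over the 4 libraries, for both contigs (solid), the contigs most like each of them (dashed) and 3 photosynthesis markers (dotted). Lines only join the values of 1 contig. L6 and T3 are the higher libraries of their provenance for the TIP contig and the lower ones for the aquaporin contig. The axes take each library as a single plant, which the sources do not state.

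The contigs had been selected on this contrast, so the calls are given beside those over the whole table and nothing is read from them. With the thresholds of the study (adjusted p below 0.05, absolute logFC above 1), limma called 0 of the 2 contigs and 0.154% of all contigs. At an unadjusted p under 0.05 limma had both of them and 14.7% of all contigs. The edgeR exact test, which is the test in the methods of the study, called both on the recovered counts, with 5.99% of all contigs called, and DESeq2 called both with 6.19%. The quasi-likelihood test of edgeR called 0 of the 2 contigs and 0.0114% of all contigs, and at an unadjusted p under 0.05 it had both, with 14.2% of all contigs. A ratio of the lowest Leiria to the highest Tamrabta library at least as large as that of the TIP contig, 2.05, was reached by 3.46% of all contigs, and one as large as that of the aquaporin contig, 1.74, by 4.67%. The median logFC of all contigs was 0.011. With 2 plants against 2 an exact two-sided permutation test cannot give a p below 0.333.

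**Figure D3:**
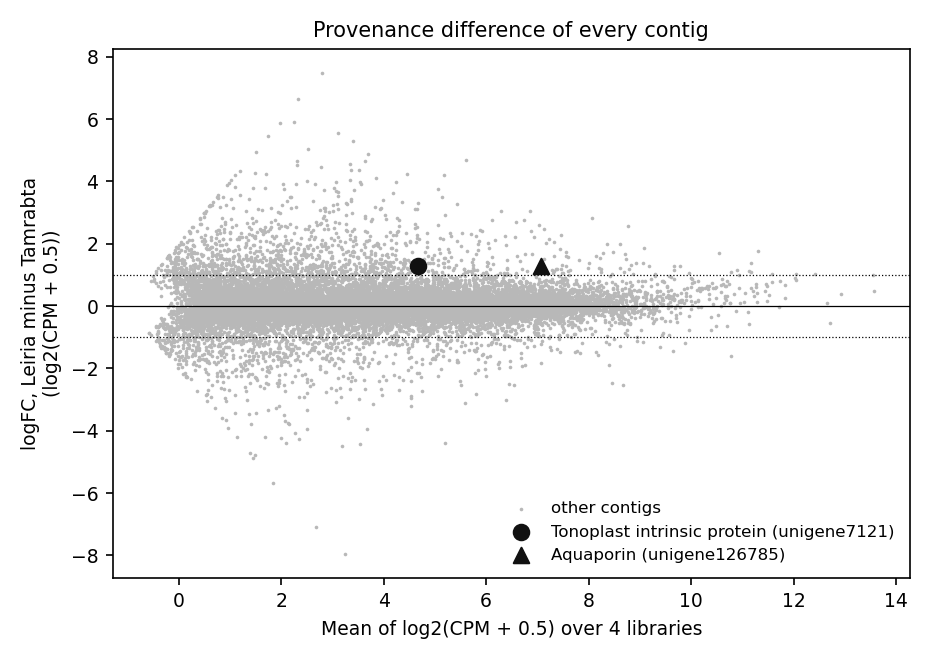
The logFC (Leiria minus Tamrabta, log2 scale) of every contig against its mean log2(CPM + 0.5) over the 4 libraries, with the TIP contig as a circle and the aquaporin contig as a triangle; dotted lines mark an absolute logFC of 1. Both contigs lie just above the upper line, at 1.28 and 1.30, where 6.89% of all contigs had a logFC over 1.

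Because neither contig's provenances overlapped, no single library could turn the sign of its logFC, and only its size could change. With each library left out in turn the logFC of the TIP contig lay between 1.14 and 1.43. That of the aquaporin contig lay between 0.97, without T3, and 1.62, without T6, so that without T3 it was no longer over 1. With each library scaled to a sum of 1000000 in place of the TMM scaling, the logFC values were 1.13 and 1.14, while the median of all contigs moved to -0.13. After quantile normalization they were 1.24 and 1.26.

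**Figure D4:**
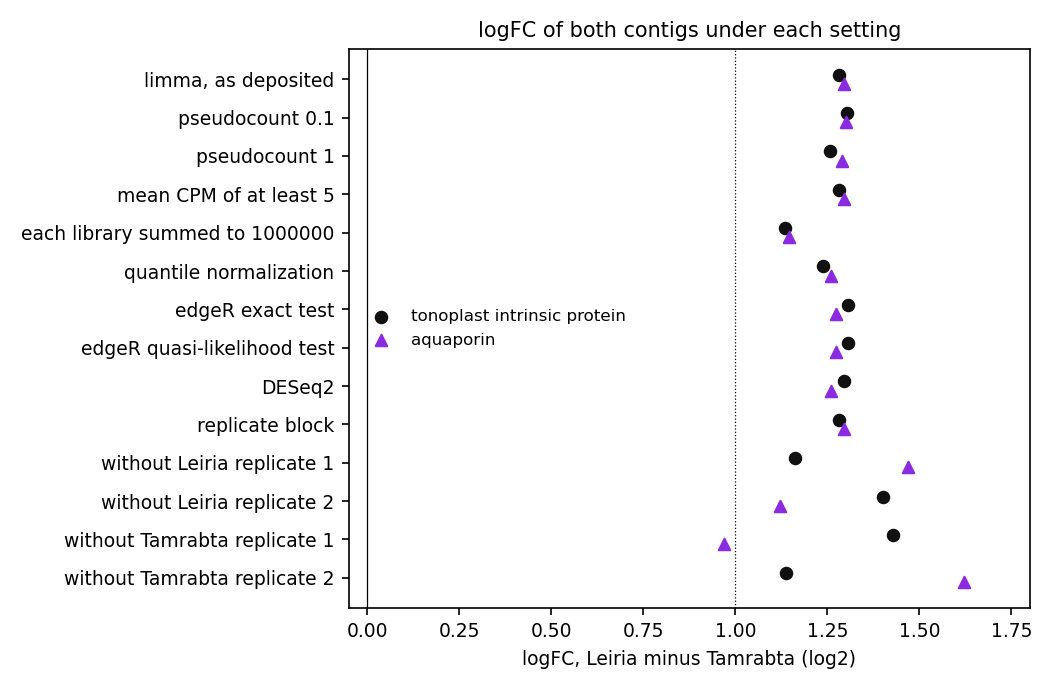
The logFC (Leiria minus Tamrabta, log2 scale) of the TIP contig (circles) and the aquaporin contig (triangles) under each setting, with limma on the deposited values at the top; the dotted line marks a logFC of 1. All points lie above 0, between 0.97 and 1.62, and the aquaporin contig has the higher logFC without Leiria replicate 1 or Tamrabta replicate 2 and the lower one without Leiria replicate 2 or Tamrabta replicate 1.

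The photosynthesis markers with a row were the oxygen-evolving enhancer protein 2 of photosystem II, the light-harvesting protein Lhca4 and subunit V of the photosystem I reaction center. Their summed level was 4551 (L6) and 3306 (L7) CPM in Leiria plants and 2483 (T3) and 1926 (T6) CPM in Tamrabta plants. All 3 had both Leiria plants above both Tamrabta plants, beside 25.1% of all contigs, and all 3 were higher in L6 than in L7 and in T3 than in T6, beside 29.1% of all contigs. This is the order of the TIP contig and not that of the aquaporin contig. Their logFC values were 1.19, 0.82 and 0.78, and after quantile normalization 1.15, 0.42 and 0.50. Limma called 0 of the 3 (0.154% of all contigs), with 3 at an unadjusted p under 0.05 (14.7%), the quasi-likelihood test of edgeR called 0 (0.0114%), while DESeq2 (6.19%) and the edgeR exact test (5.99%) each called 1. These markers too were taken from array rows with a low p for the provenances, and their part in the levels of the TIP and aquaporin contigs was not tested.

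Related genes of several kinds were taken by their descriptions from the same array rows. They were other aquaporins, proton pumps and vacuole membrane proteins, water deficit and late embryogenesis abundant proteins, carbonic anhydrase and potassium transporters. Of 14 such contigs, 4 were in the RNA-Seq table, and another aquaporin contig, sp_v3.0_unigene146042, which carries the same description as sp_v3.0_unigene126785, was not among them. It could not be told how pairs that match several aquaporin contigs were counted, so both levels may hold counts from similar genes. Limma called 0 of the 4 (0.154% of all contigs), with 2 at an unadjusted p under 0.05 (14.7%). The edgeR exact test called 1 of the 4 (5.99%), DESeq2 1 (6.19%) and the quasi-likelihood test of edgeR 0 (0.0114%). The logFC was positive for 3 of the 4 and negative for 1, with a median of 0.37, beside 0.011 over all contigs. The arrays had preselected these contigs for a difference, so this split does not describe a gene class.

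Among them, a putative vacuole membrane protein (sp_v3.0_unigene5632) had 39.6 (L6) and 33.4 (L7) CPM in Leiria plants and 35.1 (T3) and 34.4 (T6) CPM in Tamrabta plants. The values of the provenances overlapped here. Its logFC was 0.063 (standard error 0.17) and became -0.086 with libraries scaled to equal sums of 1000000. Carbonic anhydrase (sp_v3.0_unigene16974), which interconverts carbon dioxide and bicarbonate, had 4777 (L6) and 2283 (L7) CPM in Leiria plants and 2206 (T3) and 1022 (T6) CPM in Tamrabta plants. Its plants differed within a provenance about as much as the provenances did, with L7 and T3 close together, and its logFC was 1.14 (standard error 0.55), or 0.63 after quantile normalization.

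Late embryogenesis abundant (LEA) proteins accumulate in many plants when cells lose water, and 2 contigs with LEA in the description had a row, with opposite signs. For sp_v3.0_unigene93876 the description gives only a domain, LEA_2, and the Arabidopsis match is AT1G54540, so that role is not shown for it. A contig with the LEA_2 domain (sp_v3.0_unigene93876) had 15.6 (L6) and 15.3 (L7) CPM in Leiria plants and 8.30 (T3) and 10.9 (T6) CPM in Tamrabta plants, a logFC of 0.67 (standard error 0.20). A LEA protein matched to spruce (sp_v3.0_unigene4529) had 1.21 (L6) and 1.42 (L7) CPM in Leiria plants and 6.02 (T3) and 3.94 (T6) CPM in Tamrabta plants. It was the contig that the exact test and DESeq2 called, with a logFC of -1.57 (standard error 0.28) and an adjusted p of 0.143 from limma. Its lowest count was 44. Both LEA contigs kept their sign under quantile normalization and with libraries scaled to equal sums. The provenances did not overlap for either of them, as for 49.0% of all contigs in one direction or the other.

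To see which contigs had a pattern like each of these, log2(CPM + 0.5) values were centred on the mean of each contig and compared by their root mean square difference over the 4 libraries, among 11217 other contigs with a mean of at least 5 CPM. With 4 libraries such likeness is only a description. The contig most like the TIP contig was sp_v3.0_unigene8464, described as a putative MADS-box protein, a family of transcription factors, at 0.043. It had 58.4 (L6) and 53.2 (L7) CPM in Leiria plants and 24.8 (T3) and 21.0 (T6) CPM in Tamrabta plants, so it too was slightly higher in L6 and in T3. The next with an entry in the array annotation, sp_v3.0_unigene12199, is listed there as an unassigned protein.

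The contig most like the aquaporin contig, at 0.037, was sp_v3.0_unigene30513, for which no description was at hand. The nearest described ones, sought only among contigs with an entry in the array annotation, were sp_v3.0_unigene29818 at 0.060 and sp_v3.0_unigene1944 at 0.11. The first is described as a serine-rich protein-like protein. The second is described as gibberellin receptor GID1-like, after a Physcomitrella patens sequence, and its Arabidopsis match is AT5G23530. Both names rest on similarity to other species. The GID1-like contig had 7.92 (L6) and 9.64 (L7) CPM in Leiria plants and 3.01 (T3) and 4.09 (T6) CPM in Tamrabta plants, with the higher plant of each provenance the same as for the aquaporin contig. The TIP and aquaporin contigs differed from each other by 0.39. In the order of likeness to the TIP contig the aquaporin contig stood at 782, with 6.96% of the compared contigs nearer, and in the order of likeness to the aquaporin contig the TIP contig stood at 419, with 3.73% nearer. The nearest contig was another one for both with a pseudocount of 1, and for the aquaporin contig also after quantile normalization.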

How the data were processed

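Needle RNA of 4 samples was sequenced as paired-end reads on an Illumina HiSeq. After trimming with SeqTrimNext, concordant pairs were mapped by the authors onto SustainPineDB contigs using Bowtie2 and counted with an in-house script. The deposited signal is the CPM of edgeR after TMM scaling. For tool versions, strand and pairs that match several contigs, the treatment was not given in the sources used here. The study's script states a filter of over 1 CPM in 2 libraries, applied before the TMM scaling. On the deposited values, which are scaled, 989 of the 17571 rows do not meet it. Rows near 1 CPM can differ between these measures, and the unscaled values were not checked. Both contigs described here meet it.

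Every column held multiples of the value of 1 count, and dividing by it gave whole numbers (tolerance 0.01 counts) for 100% of 70284 values. The recovery and the tests were also run on simulated data, and the outcomes of those runs are not given here. Because the deposited values are normalized, the provenances were compared with limma 3.58.1 (R 4.3.3) with a trended prior variance, on log2(CPM + 0.5) values, and Benjamini-Hochberg adjustment over all contigs. The edgeR 4.0.16 exact and quasi-likelihood tests and DESeq2 1.42.0 ran on the recovered counts as alternatives, beside other pseudocounts (0.1 and 1), a filter, 2 scalings, the replicate block and each library left out. The libraries of a provenance differed by more than sampling noise (chi-square per degree of freedom 85.1 in Leiria and 184 in Tamrabta) and were kept apart. A count of 0 allowed up to 0.0825 CPM (3 counts, in L6).

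The contigs, the related genes and the tests were chosen with earlier results of these data known. Named contigs were the 2 described, the related genes with a row, and for each of the 2 the most alike contig and the 2 most alike with a description. A list of potassium transporters (2 contigs) had no row.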

Additional observations from a re-analysis of the deposited data

How the results depend on the processing

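The logFC values of the TIP and aquaporin contigs were positive under each of 13 alternatives. They lay between 1.13 and 1.43 for the TIP contig and between 0.97 and 1.62 for the aquaporin contig. With a library left out the sign could not turn, since the provenances did not overlap. Nor could a value then move by more than the spread between replicates, which is made of the same gaps between plants. The replicate block and the filter leave a logFC as it is. With the other pseudocounts, the scalings and the count tests, both values moved by less than that spread. The difference between these logFC values took both signs, with 6 positive and 7 negative values. The number of contigs called over the whole table, 27 with limma, was 17 with a pseudocount of 1, 5 with a mean CPM of at least 5 (which tests fewer contigs), 1053 with the edgeR exact test, 2 with its quasi-likelihood test and 1088 with DESeq2, and between 0 (without L6, L7 or T3, with 1311, 1484 and 3505 contigs at an unadjusted p under 0.05 in limma) and 32 (without T6) with a library left out. The cause of the other changes was not tested. Of the TIP and aquaporin contigs, the exact test and DESeq2 called 2 each, against 0 with limma and 0 with any library left out, where 1 plant is left in a provenance.

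The labels give both provenances the replicate numbers 1 and 2. Over contigs, the deviations of same-numbered libraries had a correlation of 0.20, and with 2 such pairs the numbers are not shown to pair the plants. With the replicate block limma called 9 contigs, again with 0 of the 2 described here among them. The logFC values were 1.28 and 1.30 as without it, since a balanced block leaves them unchanged. Contigs with few counts are limited by depth, which at the 643 or more counts of the TIP and aquaporin contigs gave counting intervals narrower than the gaps between plants.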
